A study of Mus musculus with 18 samples.

Results

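FoxA1 knockout footpad skin was followed here from P10 to P31, that is from postnatal day 10 to day 31. All 3 arrays of knockout skin at P31 were set against all 3 at P10, 6 of the 18 arrays of the series, for every probe that the scanner software marked as well above background in the skin channel on at least 3 of these 6 arrays. That left 25698 of the 42006 probes of the array, of which 25677 were tested and 21 were left out for a missing value. The mice were C57BL/6 of mixed sex, and the tissue was hairless skin of the fore footpad. The other 12 arrays hold the knockout at P14 and wild-type littermates of all 3 ages, with 3 arrays in each group, each from a separate animal according to the design text, which calls the animals embryos although all ages are after birth. The labels do not say in which cells or by which allele FoxA1 was removed, and the sex of each animal is not given. Cy3-labelled skin RNA was hybridised with Cy5-labelled RNA of a common reference (mouse cell lines pooled and mixed with embryonic stem cell RNA), and the dyes were never swapped. Each value below is a log2 ratio of skin to this reference, and a change is the P31 mean minus the P10 mean of that ratio.

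FoxA1 is a forkhead transcription factor that opens chromatin at its target genes and is found in the secretory cells of several glands. In the mouse the footpads are the main site of eccrine sweat glands, whose secretory cells move ions and water into the lumen through channels and cotransporters such as Best2 and Slc12a2. Between P10 and P31 the footpad passes from the growth of the newborn to the mature skin of a weaned mouse.

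The array gives probe numbers and probe sequences but no gene names. Probes were therefore placed by exact match to RefSeq windows around gene starts (GRCm38.p6), from 250 bases before a start to 50 after it. A gene name was given where the matched stretch lay within 1 gene on the same strand. That gene need not be the one whose window was matched. This placed 418 probes and named 260, of which 143 probes for 139 genes were among those tested. Whether a probe lies in an exon, an intron or an untranslated stretch, and whether its sequence occurs elsewhere in the genome, was not analysed here. The probes of the 3 largest rises and 3 largest falls among named genes are shown by 30 of their 60 bases, 5′ to 3′, because the names below rest on them. Capitals mark bases that match the RefSeq window, and lower case marks bases beyond its edge.
Retn: AATACCCAGAACTGAGTTGtgtcctgctaa
Hspd1: GTTCTAGAACGGACCGTGGCCCAGGAACCA
Gm9828: GCTGTGGTTAAATCAGTCTGCCCTGTGGCC
C1qtnf3: TTCTGCTCTTTGAAACTAAGTGACAAGGAA
Lamb2: tCCCTAGGGCCTAGCCTTGTCGCCAAGCAC
Podxl2: TCGGACGTGTTCGAGGAGGACACTCACCTG

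The matched stretches lie at chr8:3655771-3655819 on the plus strand (Retn), chr1:55088008-55088067 on the minus strand (Hspd1), chr13:98317195-98317254 on the plus strand (Gm9828), chr15:10978653-10978712 on the plus strand (C1qtnf3), chr9:108490426-108490484 on the plus strand (Lamb2) and chr6:88842740-88842799 on the minus strand (Podxl2). The match covers 49 bases of the Retn probe, 59 of the Lamb2 probe and all 60 of the other 4. The largest changes of all were seen in probes that no window named, and the first 30 bases of the leading 2 in each direction are given so that they can be identified.
Z00023589-1: tcagtttaggtgatacctggttgaatcact
Z00022843-1: cgaatcgccttccctgggaaagttatagca
Z00034035-1: tacacatattgtcttgtgttgctggtgcca
Z00018229-1: caaagttctgggaacttaacatttctgtca

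Knockout skin changed widely between P10 and P31. A probe was called when the limma adjusted p was under 0.05 and the change was over 1.5-fold, and 4995 probes met this (19.5% of those tested). Of these, 2207 were higher at P31 (8.60%), with a median change of 0.80, and 2788 were lower (10.9%), with a median change of -0.91. Changes of over 4-fold were found for 64 higher and 125 lower probes. Over all tested probes the median change was 0.06. All 3 P31 arrays lay above all 3 P10 arrays for 6467 probes (25.2%) and below them for 5809 (22.6%). The correlation over tested probes was 0.964 to 0.992 between arrays of the same age and 0.903 to 0.930 between arrays of different age. The median difference over all tested probes was 0.10 to 0.27 between arrays of the same age and 0.25 to 0.36 between ages, ranges that overlap.

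**Figure D1:**
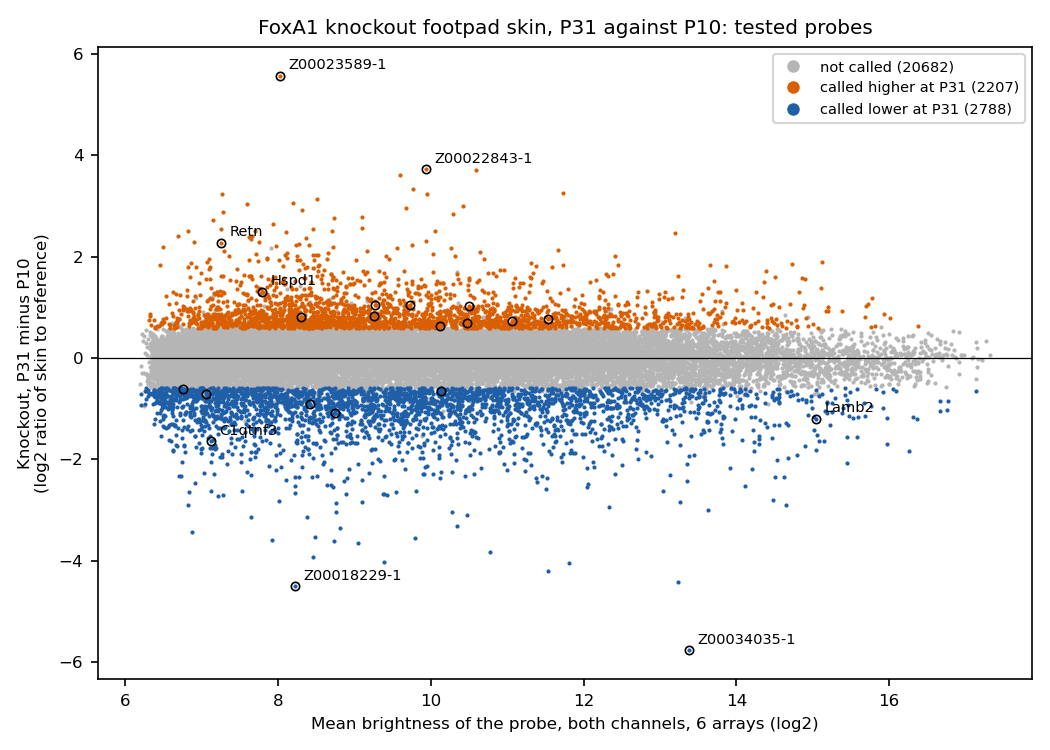
Change from P10 to P31 in the knockout (vertical axis, log2 ratio) against mean brightness of the probe over both channels and the 6 arrays (horizontal axis, log2), 1 point per tested probe. Grey points are not called, orange points (2207) were called higher and blue points (2788) lower at P31; rings mark the called genes and unnamed probes chosen for description, and the 4 unnamed ones lie at the outer ends of the cloud.

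P10 skin never shared a slide with older skin, and for this comparison the effect of slide cannot be told apart from that of age. The 3 knockout arrays of P14 lay on a slide without P10 or P31 arrays, so the same holds for each step through P14. Replicates 1 and 2 of P10 shared a slide, as did replicates 1 and 2 of P31, while replicate 3 of each age lay on a slide with the 3 wild-type arrays of its age. Replicate 3 of P31 stood apart: 55.6% of all probes were well above background on it, against 62.4% and 63.7% on the other P31 arrays and 59.1% to 62.7% on the P10 arrays, and on the first principal component of the 6 arrays, with 71.1% of the variance, it lay at 30.8 where the other P31 arrays lay at 50.8 and 51.3. Without it 6167 probes were called, 3127 higher and 3040 lower. Between replicate 3 of P31 and replicate 3 of P10 alone, 2189 of the 2207 higher and 2787 of the 2788 lower probes differed in the called direction, with median changes of 0.61 and -0.82; replicate 3 entered the calls, so this is a description. No spot was saturated, and the median Cy3 brightness was 156 to 188 on the P10 arrays and 107 to 146 on the P31 arrays, over a local background of 44 to 54. The part of these differences between arrays in the calls was not tested.

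Of the 139 named genes 19 were called, 12 higher and 7 lower. That is 13.7% of them, beside 19.5% of all tested probes, and the median change of the named genes was 0.17. Without replicate 3 of P31 33 named genes were called. Of the called genes, 18 had P31 arrays that did not overlap the P10 arrays, as had 2121 of the 2207 higher and 2762 of the 2788 lower probes in all. Of the genes in 23 lists drawn up for skin, sweat gland, muscle, immune and other cell types, 3 of 599 had a tested and named probe, none of them among the keratinocyte or sweat gland lists, so the labelled tissue was not checked against its own markers. Foxa1, Best2 and Slc12a2 had no placed probe and are not analysed here. A fall or rise in whole skin can come from fewer cells of a type or from less RNA per cell, which bulk values do not tell apart.

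The named genes are described by groups that were drawn up by hand after the values were known, and nothing particular to a group is read from its counts. Other tested genes of the same kind may be missing from any of the groups. Over all tested probes 8.60% were called higher and 10.9% lower, which is the background for each group's count. The median change of 0.17 over the named genes is the background for each group's median. Of 7 genes of secreted and matrix proteins 2 rose and 3 fell, with a median change of 0.10. Retn encodes resistin, a hormone secreted by fat cells in the mouse, and is the single member of the adipocyte list that was tested. Its ratio was 0.14, 0.60 and 0.74 on the P10 arrays and 3.02, 2.89 and 2.40 on the P31 arrays. The lowest P31 array lay well above the highest P10 array. Retn rose by 2.28 (SE 0.18, limma adjusted p = 1.4e-07), 4.84-fold on this ratio. It was well above background on 1 of the 3 P10 arrays and all 3 P31 arrays, so the fold runs to P10 values mostly near background and is no exact size. It stood at 1.80 ± 0.12 (SD, n = 3) at P14, between the other ages. On the Cy3 channel alone, without division by the reference, the log2 change was 4.59, beside 2.28 on the ratio.

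C1qtnf3, a secreted protein of the C1q and tumour necrosis factor related family, fell. Its ratio was 2.28, 2.26 and 1.77 at P10 and 0.73, 0.20 and 0.47 at P31, with the groups apart. The change was -1.64 (SE 0.18, adjusted p = 5.3e-06), 3.11-fold lower on the ratio. On the Cy3 channel alone the log2 change was -3.29, and 2 of the 3 P31 arrays were well above background. The call was not kept on the scanner's own log ratio (change -1.23, adjusted p = 0.0894) or on the deposited value table (-1.23, adjusted p = 0.0848).

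Lamb2, a laminin chain of basement membranes and the single tested member of the basement membrane list, fell. It stood at 2.18, 2.28 and 2.03 at P10 and at 0.61, 0.90 and 1.40 at P31, so all P31 arrays were below all P10 arrays. The change was -1.20 (SE 0.22, adjusted p = 5.6e-04), 2.29-fold lower. Ltbp4 binds latent transforming growth factor beta and takes part in elastic fibre assembly. Its ratios were 1.25, 1.28 and 1.12 at P10 and 0.53, 0.72 and 0.59 at P31, without overlap. It fell by 0.61 (SE 0.16, adjusted p = 0.0068), close to the fold limit, and without replicate 2 of P10 or replicate 1 of P31 its change of -0.57 or -0.56 was under that limit. The call was also lost with a normexp offset of 0 (-0.58, adjusted p = 0.145) and on the scanner's log ratio (-0.91, adjusted p = 0.0627). Mif, a secreted inflammatory cytokine made by many cell types, rose from -0.67, -0.45 and -0.66 to 0.31, 0.26 and -0.06, a change of 0.76 (SE 0.12, adjusted p = 1.5e-04). The collagen gene Col28a1 (0.10, adjusted p = 0.427) and the matrix protease Adamts17 (0.19, adjusted p = 0.289) were not called.

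Glycine recurs every 3 residues along the triple helix of collagens and of the collagen-like domains of other proteins, among them the C1q-related family. A probe with this repeat may therefore come from either kind of gene. Among the probes of the array, 8 carried a GG, the start of a glycine codon, every 9 bases 6 times in a row without a stop codon in that frame, and 1 did so on the opposite strand. This pattern was chosen after the values were seen and gets no test as a group. Of the 6 that were tested 3 were lower at P31 and none was higher, the median change was -0.47, and 5 of 6 had a negative change. Of all tested probes 10.9% were called lower and 8.60% higher, with a median change of 0.06. The 3 called probes are shown in full with the GG of each repeat in capitals.
Z00016581-1: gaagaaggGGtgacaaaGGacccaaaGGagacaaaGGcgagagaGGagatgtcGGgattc
Z00070993-1: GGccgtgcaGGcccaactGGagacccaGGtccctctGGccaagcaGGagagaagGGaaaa
Z00033896-1: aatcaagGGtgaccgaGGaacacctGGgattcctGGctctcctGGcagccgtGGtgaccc

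Z00016581-1 went from 3.03, 3.12 and 2.69 at P10 to 1.45, 1.26 and 0.83 at P31, a change of -1.77 (SE 0.21, adjusted p = 1.2e-05). Most of that came after P14, where the mean was 2.46 ± 0.21 (SD, n = 3). On the Cy3 channel alone the change was -2.87. Z00070993-1 went from 1.93, 1.82 and 0.96 to 0.19, 0.54 and -0.04, a change of -1.34 (SE 0.23, adjusted p = 3.2e-04), and was well above background on 2 of the 3 P31 arrays; on the scanner's log ratio the change was -2.61. In both probes all P31 arrays were below all P10 arrays. Z00033896-1 changed by -0.69 (SE 0.24, adjusted p = 0.0343), and its call was not kept under 7 alternatives, among them leaving out replicate 1 of P10 (-0.66, adjusted p = 0.0922), replicate 2 of P10 (-0.52, adjusted p = 0.153) or replicate 3 of P31 (-0.44, adjusted p = 0.150). Its lowest P31 array was at 0.06 and the other 2 were at 0.81 and 0.80, below a lowest P10 value of 0.85.

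Most of the genes of protein synthesis and of mitochondria were not called. Of 6 genes of the ribosome, translation and protein export 2 rose and none fell, with a median of 0.31, beside 0.17 over all named genes. Trmt112, the partner of several methyltransferases that act on ribosomal and transfer RNA, stood at -0.63, -0.54 and -0.51 at P10 and at 0.54, 0.12 and 0.16 at P31. Its groups did not overlap, and it rose by 0.83 (SE 0.17, adjusted p = 0.00161). Rpl38, a protein of the large ribosomal subunit, rose by 0.69 (SE 0.23, adjusted p = 0.0282). A second probe of the gene gave 0.69 (SE 0.24, adjusted p = 0.0331). It overlaps the first in sequence (chr11:114668526-114668585 against chr11:114668538-114668597) and is no independent reading. On the first probe the P31 values of -0.27, -0.42 and -0.96 lay above P10 values of -1.26, -1.14 and -1.33. Yet leaving out any of replicates 1, 2 and 3 of P10 or replicates 1 and 2 of P31 lost the call (adjusted p from 0.0502 to 0.121). Ribosomal proteins have near-identical copies in the genome, so the source of this signal is uncertain. Rpl10a, Fau, Rps27l and Sec61b were not called, at 0.13, 0.26, 0.05 and 0.36.

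Among 7 mitochondrial genes 1 rose, none fell, and the median change was 0.16. The one called was Hspd1, the chaperonin of the mitochondrial matrix. It stood at 1.28, 1.39 and 1.10 at P10 and 2.76, 2.68 and 2.25 at P31, with a wide gap between the ages. The change was 1.31 (SE 0.19, adjusted p = 8.1e-05), 2.48-fold, and the mean at P14 was 1.49 ± 0.26 (SD, n = 3), close to P10. The respiratory chain genes Ndufa9, Ndufa11 and Ndufb11 changed by -0.17, 0.04 and 0.16, the nucleotide carrier Slc25a5 by 0.11, the mitochondrial ribosome gene Mrps21 by 0.17 and the fission factor Mff by 0.28. None of these 6 was called.

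Of 8 histone genes 1 was called higher, near the background share of 8.60%, and the other 7 did not pass. The median change of the 8 was 0.36, beside 0.17 over all named genes and 0.06 over all tested probes. H2ac18 stood at 1.70, 1.76 and 1.37 at P10 and 2.63, 2.59 and 2.03 at P31, a change of 0.81 (SE 0.25, adjusted p = 0.0187); its call was lost without replicate 3 of P10, replicate 1 of P31 or replicate 2 of P31 (adjusted p = 0.0758, 0.0769 and 0.0692). The match of this probe covers 35 bases, and histone genes are near-identical copies of each other, so the gene behind the signal is uncertain. H2bc7 (0.57, adjusted p = 0.0372) and H2bc11 (0.48, adjusted p = 0.0211) passed the adjusted p but not the fold limit.

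Among membrane proteins Tmc4 and Plet1 rose. Of 3 genes of channels and transporters 1 rose and none was called lower. Tmc4, a member of the transmembrane channel-like family, went from -0.03, -0.09 and 0.07 at P10 to 0.75, 1.28 and 1.05 at P31. The groups were far apart, the change was 1.04 (SE 0.12, adjusted p = 6.2e-06), and by P14 it had reached 0.70 ± 0.06 (SD, n = 3). Plet1, a surface protein of epithelial progenitor cells in several tissues, went from 3.23, 3.52 and 3.36 to 4.35, 4.60 and 4.21, a rise of 1.02 (SE 0.14, adjusted p = 3.1e-05). Slc12a4 is a potassium-chloride cotransporter of the same family as Slc12a2 and was picked for mention after its value was seen. It changed by -0.46 (SE 0.12, adjusted p = 0.00713), which passed the adjusted p but not the fold limit.

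Podxl2 and Ntng1 fell, 2 of the 4 genes grouped here as known from nerve cells, with 10.9% of all tested probes called lower. Other tested genes known from nerve cells may be missing from this group. Podxl2, a sialomucin also called endoglycan, stood at 2.48, 2.50 and 2.25 at P10 and 1.46, 1.59 and 0.94 at P31. It fell by 1.08 (SE 0.19, adjusted p = 4.9e-04), and nearly all of that came after P14, where the mean was 2.43 ± 0.07 (SD, n = 3). On the Cy3 channel alone the change was -1.72. Ntng1, a netrin anchored to the membrane that guides axons, went from 3.76, 3.91 and 3.64 to 2.60, 3.43 and 2.57, a change of -0.91 (SE 0.21, adjusted p = 0.00302). One of its P31 arrays, replicate 2, came close to the P10 range. The synaptic genes Unc13b and Homer2 changed by 0.24 and 0.33 and were not called.

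Of 5 genes of redox and small-molecule metabolism 1 rose and none fell. Abhd6, a lipase that splits monoacylglycerols, went from 1.60, 1.58 and 1.62 at P10 to 2.32, 2.27 and 2.09 at P31, a rise of 0.63 (SE 0.11, adjusted p = 4.4e-04). Without replicate 1 of P31 its change of 0.58 was just under the fold limit, and on the Cy3 channel alone the adjusted p was 0.0702. The pentose phosphate enzyme Taldo1 changed by 0.56 (adjusted p = 0.00123), just under the fold limit, and the peroxidase Prdx1 by 0.45 (adjusted p = 0.0552). Dclre1b, a nuclease that protects chromosome ends, rose by 0.74 (SE 0.15, adjusted p = 0.00112); its probe matched RefSeq over 38 bases.

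Among 6 transcription factors 1 rose and 1 fell. Zbtb8a, a zinc finger protein, stood at -0.96, -1.02 and -1.15 at P10 and at -1.71, -1.72 and -1.66 at P31, a change of -0.65 (SE 0.10, adjusted p = 1.7e-04). Camta2, a calmodulin-binding activator, was called higher with overlapping groups. Its P10 values were 1.17, 1.08 and 1.01 and its P31 values 1.88, 2.21 and 1.12 (change 0.65, SE 0.23, adjusted p = 0.0406), and the call was not kept under 10 alternatives, which include leaving out any one of replicates 1, 2 and 3 of P10 or replicates 1 and 2 of P31 (0.42, adjusted p = 0.205, without the last). Pax7, Bcl11a, Pou2f2 and Zbtb22 were not called.

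The remaining called genes carry provisional names. Gm9828, a long non-coding RNA, rose from 0.97, 0.94 and 0.84 to 2.28, 2.27 and 1.35 (change 1.05, SE 0.25, adjusted p = 0.00453), with replicate 3 of P31 lower than the other 2. Gm9222 fell from 0.69, 0.75 and 0.58 to -0.06, -0.08 and 0.02 (change -0.71, SE 0.19, adjusted p = 0.00854); on the Cy3 channel alone the change was larger, at -1.21, but its adjusted p was 0.193. Acta2, the smooth muscle actin also found in the myoepithelial cells of glands, is the remaining tested member of the lists. It changed by 0.08 (SE 0.10, adjusted p = 0.590), and its probe was well above background on 3 of the 6 arrays.

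**Figure D2:**
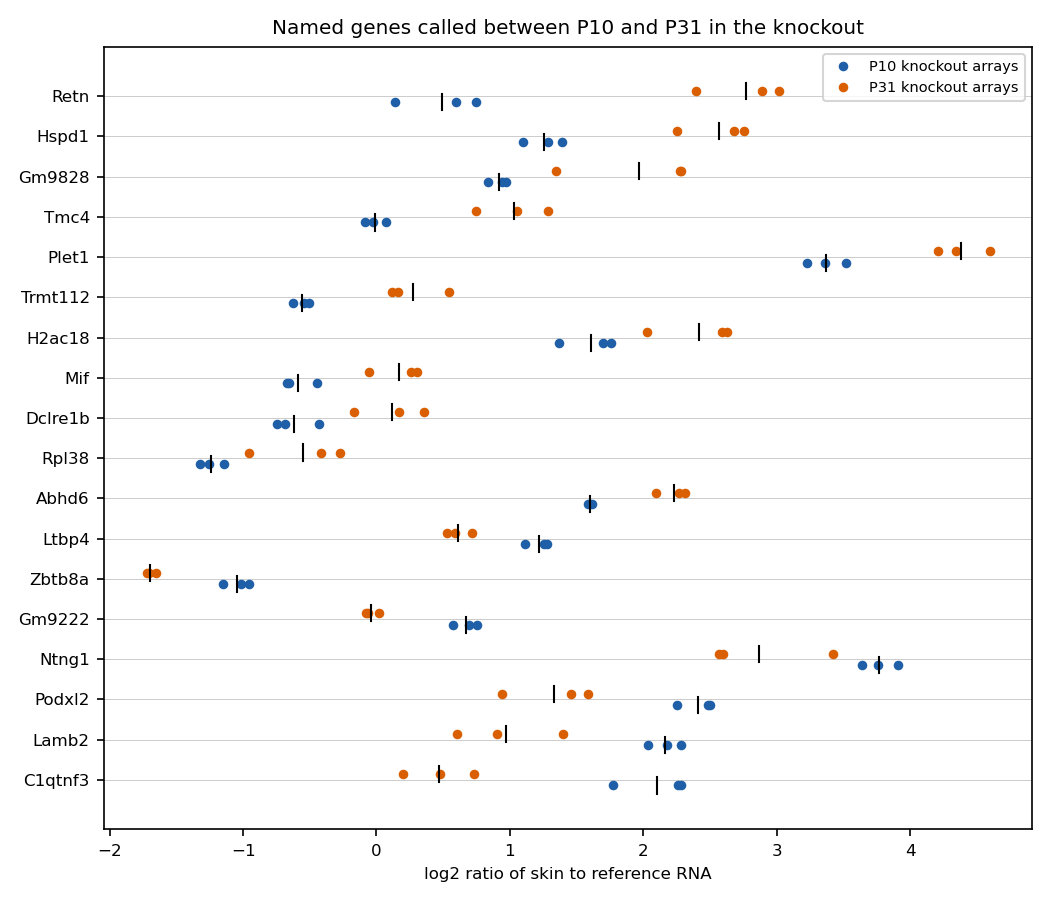
The log2 ratio of skin to reference (horizontal axis) on each knockout array for the 18 named genes that were called without overlap between the ages; blue points are the 3 P10 arrays, orange points the 3 P31 arrays and black ticks the group means. Retn has the widest gap among the genes that rose and C1qtnf3 among those that fell, while Rpl38 and Ntng1 each have a P31 array close to the P10 range.

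The largest rise of all tested probes was that of Z00023589-1. Its ratio was 0.64, 1.03 and 0.70 at P10 and 6.93, 5.67 and 6.48 at P31, a change of 5.57 (SE 0.23, adjusted p = 1.8e-10), 47.5-fold. At P14 it was still at 0.87 ± 0.08 (SD, n = 3), so the P14 mean lay within 1 SD of the P10 mean. Z00022843-1 rose by 3.73 (SE 0.35, adjusted p = 8.1e-07), from -2.48, -2.37 and -2.49 to 0.75, 2.18 and 0.94, and had moved part of the way by P14 (-0.74 ± 0.08). The P14 means of these probes thus lay at different places between P10 and P31.

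The largest fall was that of Z00034035-1, from 1.74, 1.61 and 0.36 to -4.27, -4.44 and -4.89, a change of -5.77 (SE 0.31, adjusted p = 4.3e-09), 54.5-fold. Replicate 3 of P10 was lower than the other P10 arrays, yet far above P31. It stood at -2.02 ± 0.15 (SD, n = 3) at P14. Z00018229-1 went from 3.85, 3.43 and 3.09 at P10 to 1.09 ± 0.22 at P14 and was above the scanner's background mark on none of the P31 arrays. Its 3 detected arrays were thus all of P10, and it entered the test through that age. On the Cy3 channel it was at least 22.8-fold lower at P31, a bound that sets the normalised level at P10 against the higher of the probe's own level and the dimmest level marked well above background on each P31 array. The limma change of the ratio, which also holds the reference channel, was -4.51 (adjusted p = 1.6e-10) and is no exact size. On the scanner's log ratio its change was -7.51.

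**Figure D3:**
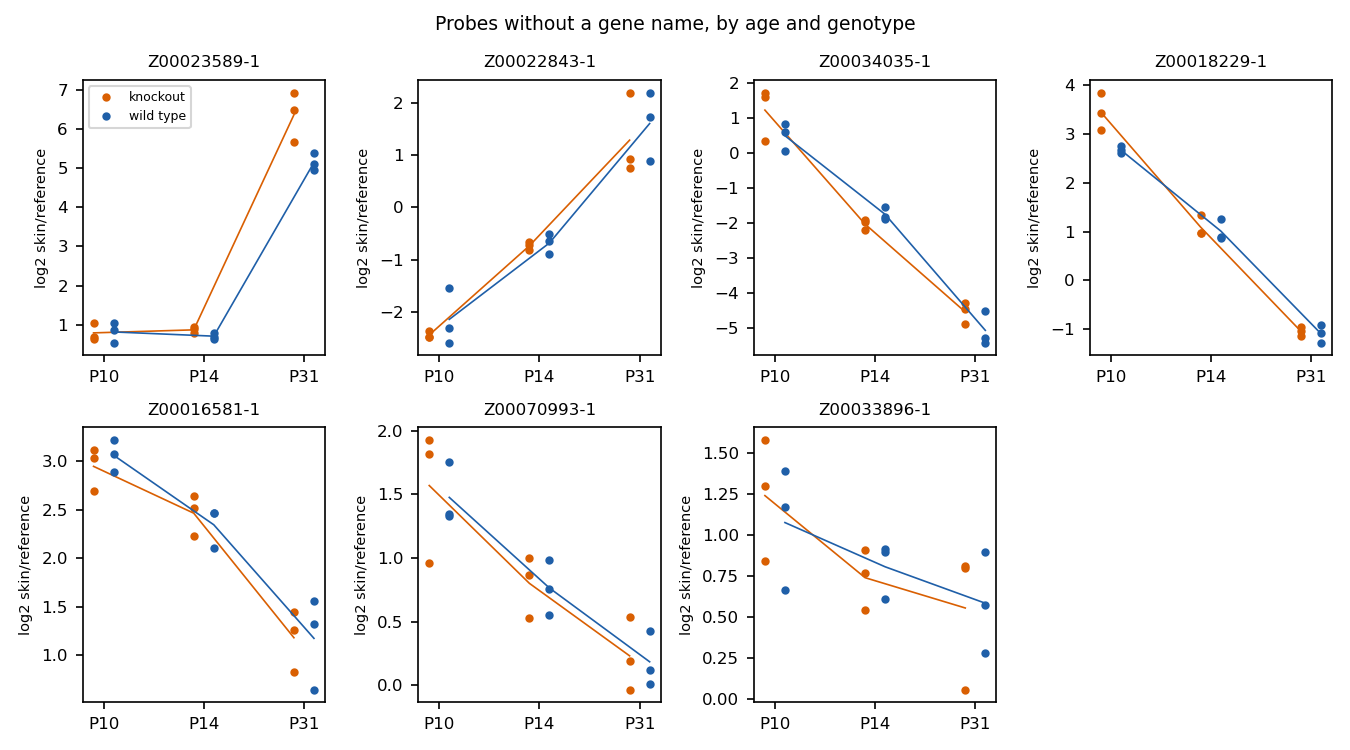
The log2 ratio of skin to reference on each array (points) and the group means (lines) at P10, P14 and P31 for the 4 leading unnamed probes and the 3 called probes with the glycine repeat; orange is the knockout and blue the wild type. Z00023589-1 is flat until P14 and high at P31 in both genotypes, and the other 6 probes have intermediate means at P14.

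Probes that share sequence gave a check within the array. Tested probes with at least 20 bases in common were joined into 741 groups. Of these, 681 were pairs, and the larger groups were not compared. Among the pairs 161 had at least 1 called member. Both were called in the same direction in 111 of these pairs, 1 of them in 50, and in none were they called in opposite directions. The median difference between the probes of a pair was 0.06, beside a median size of change of 0.29 over all tested probes. The pair with the largest change was Z00025051-1 and Z00074756-1, with 46 bases in common and changes of -3.14 and -3.35. Shared bases mean that such pairs are not independent readings of different transcripts.

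Detection on all arrays of an age and none of the other was found for few probes. On all 3 P31 arrays but no P10 array 117 probes were well above background, and the reverse held for 343. These probes passed the filter only through the age at which they were detected. Of the members 22183 (86.3%) were well above background on all 6 arrays. Among all tested probes the share called was 15.2% among the 8559 dimmest, 24.7% among the next 8559 and 18.4% among the 8559 brightest. The probes called lower had a mean GC content of 43.0% and those called higher 46.4%, against 45.0% over all tested probes; the part of base composition in the calls was not tested.

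The P14 arrays of the knockout split the interval into 2 steps, in neither of which slide and age can be told apart. Since P14 against P10 and P31 against P14 share arrays with the main comparison, their values are given side by side. Between P10 and P14 1334 probes were called (5.20%), 499 higher (1.94%) and 835 lower (3.25%), and between P14 and P31 1413 (5.50%), 462 higher (1.80%) and 951 lower (3.70%). For the 2207 probes called higher over the whole interval the median changes of the 2 steps were 0.45 and 0.38, and for the 2788 called lower they were -0.47 and -0.49. The named genes differed in this. Retn changed by 1.31 and 0.97 in the 2 steps, C1qtnf3 by -1.03 and -0.60, Lamb2 by -0.73 and -0.47, Tmc4 by 0.71 and 0.33, Hspd1 by 0.23 and 1.08, and Podxl2 by 0.02 and -1.10.

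Wild-type littermates were measured at the same ages, which lets the change be set against that of skin with FoxA1. They come from other animals, although replicate 3 of the knockout at each age shared its slide with them. In the wild type 3329 of the same probes were called (13.0%), 1401 higher (5.46%) and 1928 lower (7.51%). Of the 4995 knockout calls 2734 were also wild-type calls in the same direction, 54.7% of the knockout calls and 82.1% of the wild-type calls, and none was called in the opposite direction. The change over all 25677 probes correlated at r = 0.872 between the genotypes, a correlation across probes that share slides and a reference. Among the knockout calls the median size of change was 0.85 in the knockout and 0.64 in the wild type; those probes were chosen on the knockout arrays. Among the wild-type calls, chosen on the other genotype, it was 0.91 in the knockout and 0.83 in the wild type.

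The difference between the genotypes in the change from P10 to P31 was itself tested with limma. No probe passed (0 of 25677 at an adjusted p under 0.05), and 1511 (5.88%) had an unadjusted p under 0.05. Without variance moderation 0 passed as well. The probe with the smallest p was Z00026567-1, which changed by -3.59 in the knockout and -1.71 in the wild type, a difference of -1.88 (SE 0.35, adjusted p = 0.797). At P31 it was well above background on none of the 3 knockout arrays and 1 of the 3 wild-type arrays, so these changes run to values near background and are no exact sizes; on the Cy3 channel its fall in the knockout was at least 10.3-fold. Its P10 values were 2.78, 2.51 and 1.79 in the knockout and 0.45, 1.06 and 0.68 in the wild type, and the lower knockout value is that of replicate 3, which shared a slide with the wild type. Without replicate 3 of the wild type at P31, 9 probes passed, among them Z00026567-1 (-2.11, adjusted p = 0.046). The smallest adjusted p there was that of Z00056732-1 (-1.85, adjusted p = 0.0237), which was well above background on all arrays of both genotypes. Its wild-type values at P31 were 1.25, 1.50 and -0.32, the last on the array left out. Without replicate 3 of the knockout at P10 1 passed, Z00022471-1 (-1.62, adjusted p = 0.0438). Without replicate 3 of the knockout at P31 1 passed, Z00023856-1 (1.26, adjusted p = 0.0468). Z00022471-1 was well above background on no P31 array and Z00023856-1 on no P10 array of either genotype, so neither of these differences is an exact size. With slide as a fixed block 1 probe passed, Z00067327-1 (difference 1.99, adjusted p = 0.00213); without that block its difference was 0.55, and the spread of its P31 knockout values was wide (-0.10 ± 1.29, SD, n = 3).

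Side by side, all 19 called named genes had the same sign in the wild type, as had 4903 (98.2%) of all 4995 knockout calls, and 11 were called there in the same direction. C1qtnf3 changed by -1.67 in the wild type (SE 0.18, adjusted p = 6.8e-06), a difference between the genotypes of 0.04 (SE 0.26). Retn changed by 1.48 there (SE 0.18, adjusted p = 1.7e-05), a difference of 0.80 (SE 0.25, adjusted p = 0.842). Hspd1 changed by 0.57 (SE 0.19, adjusted p = 0.0401), a difference of 0.73 (SE 0.27, adjusted p = 0.842). Gm9222, at -0.09 in the wild type (SE 0.19, adjusted p = 0.784), and Trmt112, at 0.28 (SE 0.17, adjusted p = 0.275), had the smallest wild-type changes, with differences of -0.63 (SE 0.27) and 0.55 (SE 0.25), both at an adjusted p of 0.842. None of these differences passed, which does not show that the genotypes changed alike.

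**Figure D4:**
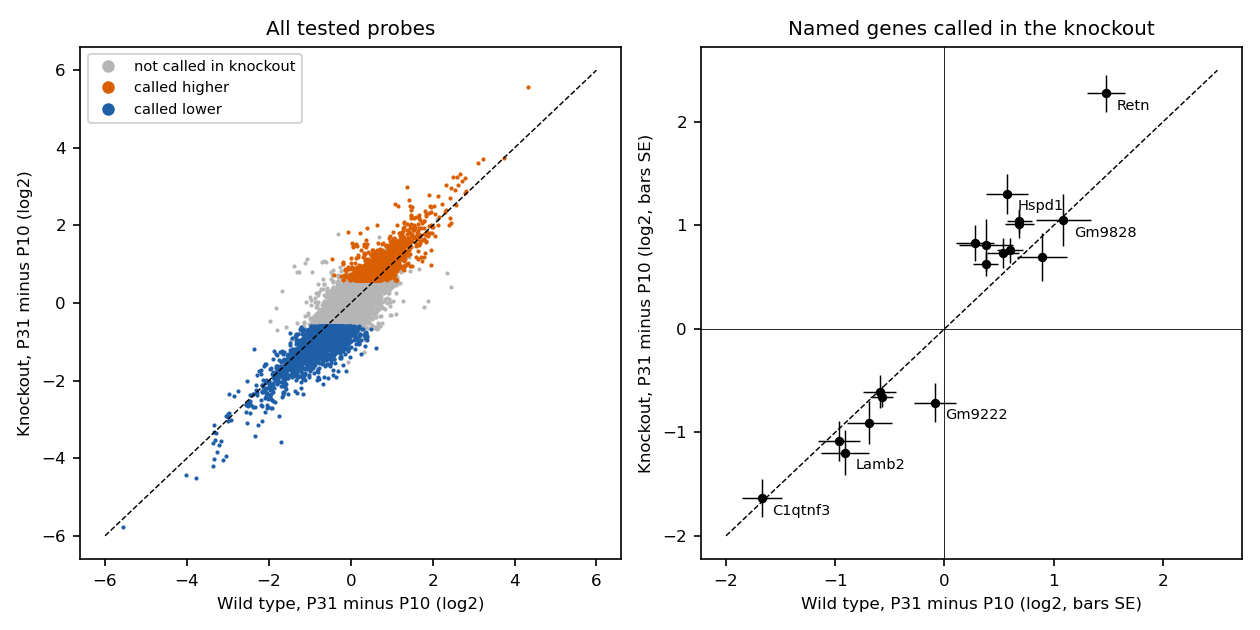
Change from P10 to P31 in the knockout (vertical axis) against the wild type (horizontal axis), both as log2 ratios, for all tested probes (left, coloured by the knockout call) and for the 18 named genes called in the knockout without overlap (right, bars are SE); the dashed line marks equal change. Most points lie near the line, with Retn and Hspd1 above it and Gm9222 below it, and no probe passed the test of the difference.

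The probes were chosen on the knockout arrays, so a transcript seen in wild-type skin alone could not enter. When all probes well above background on at least 3 of the 18 arrays were tested, 2 passed the test of the difference, Z00026330-1 (2.36, adjusted p = 0.00118) and Z00027353-1 (-2.60, adjusted p = 0.0260). Neither was well above background on any of the 9 knockout arrays, so both entered through the wild-type arrays on which they were high, and both differences are against undetected values. Z00027353-1 stood at 3.56, 1.98 and 2.65 in the wild type at P31 and between -0.07 and 0.26 in the knockout.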

How the data were processed

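Footpad skin RNA was labelled with Cy3 and a common reference with Cy5 on an NIA Mouse 44K array. Spot intensities, background intensities and spot marks (a coded "well above background" or outlier flag) were deposited as scanner output of Agilent Feature Extraction 9.5.1.1, per the file headers. The deposited log10 ratios of the scanner and the deposited value table, also log10 and already turned to skin over reference (r = 0.832 of the P31 minus P10 change with the scanner intensities), served as alternatives. Background was corrected with normexp (offset 50), arrays were normalised by loess, control and outlier spots were left out, and spots of a probe were averaged. One limma 3.58.1 model (R 4.3.3) was fitted to all 18 arrays, with 12 residual degrees of freedom and Benjamini-Hochberg adjustment over all tested probes. The series design names an ANOVA with a log intensity limit of 2.0, with no log base given there. The limit was run as an alternative filter before the same limma fit (log10 was used). No separate ANOVA was run.

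The members and lists were chosen with earlier results of these data known. Genes were named by a fixed rule: each gene by its brightest probe, the 12 largest rises and falls among called genes without overlap, up to 6 per list, and 2 unnamed probes per direction. The lists gave Lamb2 (lower), Retn (higher) and Acta2 (not called). Matches of at least 30 bases at a window's edge were added after the files were seen. The labels do not say whether replicate numbers pair the samples, and no pairing was used. Same-numbered arrays of the ages deviated together at r = 0.094, 0.041 and 0.299, the last for replicate 3. Arrays of different number gave -0.242 to 0.205, and those with a replicate 3 among them -0.242 to -0.138. The fit was tested on simulated data for knockout P31 against P10 over 25677 probes, with independent normal noise around the mean of each probe. It recovered 91 of 100 changes of size 1 and 98 of 100 of size 2 (log2), with 4 false calls. The simulation held no effect of slide and no array that stood apart, so it gives no error rate for the calls above. Arrays are 3 per group, which limits the precision.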

Additional observations from a re-analysis of the deposited data

How the results depend on the processing

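Leaving out each of the 6 knockout arrays in turn gave 4380 to 6167 called probes, 14 to 33 named genes and 2 to 2 list genes, and leaving out each of the 12 arrays of both genotypes gave 0 to 9 probes in the difference. Without a fold limit 8763 probes (4515 higher, 4248 lower) and 40 named genes were called. With a normexp offset of 0, 33 named genes were called, and with the scanner log ratio 32. Of the list genes 1 was left when all 6 arrays had to be well above background and 0 when names needed all 60 bases. In the difference 2 probes passed with no filter and 2 with a filter over all 18 arrays, and 1 with slide as a fixed block, which was added after the data were seen. All other alternatives kept these counts within 1.5 times, and Aquantile does not alter the ratios. With the replicate block 5034 probes were called, 2202 higher and 2832 lower, 4952 of them shared with the 4995, and 0 in the difference. The labels do not say whether the numbers pair the samples. With slide as a random effect 5040 were called. The share of calls that were higher was 44.2% and ranged from 41.8% to 51.5%. The median of all tested probes moved by less than 0.1 under each scaling. Of 682 values of named results, 643 were called or not called as before, 36 lost the call and 3 gained it. In 0 of them did a change of sign involve a call. A change of sign without any call was counted among the 643. The uncalled glycine-repeat probe Z00022821-1, for example, ranged from -0.738 to 0.008 over the alternatives. Over all 4995 calls, 44 had the opposite sign on the scanner log ratio, 32 on the value table (of 3403 tested there) and 4 on the Cy3 channel alone. The cause of these moves was not tested. Signal over background limits the dim probes: 35 of the 139 named genes were not well above background on all 6 arrays.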

Other observations

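Zinc finger genes of the C2H2 type were looked for by the linker between their fingers, a sequence pattern chosen after the values were seen and not tested as a group. It was found in 19 probes of the array and in 1 on the opposite strand. Of the 8 tested 2 were lower at P31 and none was higher, beside 10.9% lower and 8.60% higher over all tested probes. Z00072504-1 changed by -0.85 (limma adjusted p = 0.0108) and Z00046966-1 by -0.68 (adjusted p = 0.00284), while the other 6 lay between -0.08 and 0.23. The median was 0.08, beside 0.06 over all tested probes.

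A probe within Uty, a gene of the Y chromosome, was above the background mark on none of the 6 knockout arrays compared. Its processed Cy3 signal was 51.8 on replicate 2 of P10 and 8.66 to 11.9 on the other 5.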
